A study of Mus musculus with 4 samples.

Results

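Fibroblast-rich spots are the places on a tissue section of injured muscle where RNA of connective tissue fibroblasts makes up an unusually large share of the RNA captured. They were chosen in the section of tibial muscle taken 3 days after injury. A spot is a capture area of a Visium slide that covers several cells, so a fibroblast-rich spot is a small piece of tissue and not a cell. The rule took spots with at least 2000 UMIs (unique molecular identifiers, each counting 1 captured RNA molecule). For each it computed the marker score, the summed UMIs of Col1a1, Col3a1, Postn and Pdgfra as a percentage of all UMIs of the spot, and kept spots at or above the 90th percentile. Spots at or above the 95th percentile of the summed share of the tendon genes Prg4, Tnmd, Fmod, Thbs4 and Comp were then removed. This left 274 fibroblast-rich spots of 3029 spots in the section and of 10835 spots in the series (2.53%).

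The sections came from C57BL/6 mice of genotype Nse-Bmp4, 6-8 week old, in which a Bmp4 transgene drives heterotopic ossification, the formation of bone in soft tissue. The transgene was carried in every group, the uninjured one included. The groups were uninjured tibial muscle (day 0) and muscle at 1, 3 and 7 days after cardiotoxin injury, with 1 fresh frozen section each. According to the labels a group mixed 3 muscles. How these relate to a section was not worked out here, so no value below has a spread between animals and no test between sections or spots was made. Intervals given below cover counting error at 95% and nothing else. Barcodes name slide positions, and 1801, 2075 and 2311 barcodes of the day 3 section also occurred at days 0, 1 and 7. Of the fibroblast-rich barcodes, 216, 261 and 209 occurred there, and 14, 16 and 13 of these were chosen by the same rule. In those sections the rule chose 186 of 2107, 175 of 2667 and 202 of 3032 spots.

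Resident fibroblasts of muscle, also called fibro-adipogenic progenitors or mesenchymal stromal cells, carry the receptor Pdgfra and lie between the fibres. After injury such cells multiply, lay down a provisional matrix and send signals to the muscle stem cells that rebuild the fibres, while macrophages clear the debris. Fibrillar collagens are made as procollagen, modified and folded in the endoplasmic reticulum, trimmed outside the cell and cross-linked there. Cells of this lineage are also held to be a source of cartilage and bone in heterotopic ossification.

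The marker score of the 274 spots had a median of 0.950%, with a lowest value of 0.738% and a highest of 2.66%. The median of the 2746 other spots with at least 2000 UMIs was 0.194%. The score fell off continuously across the limit of 0.736%. The 10 spots just inside lay between 0.738% and 0.745%, and the 10 just outside between 0.728% and 0.736%. Of 302 spots at or above the limit, 28 were left out as tendon-rich. The rule thus marks the upper end of a continuous range, and the values of its 4 markers are a description of the choice.

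**Figure D1:**
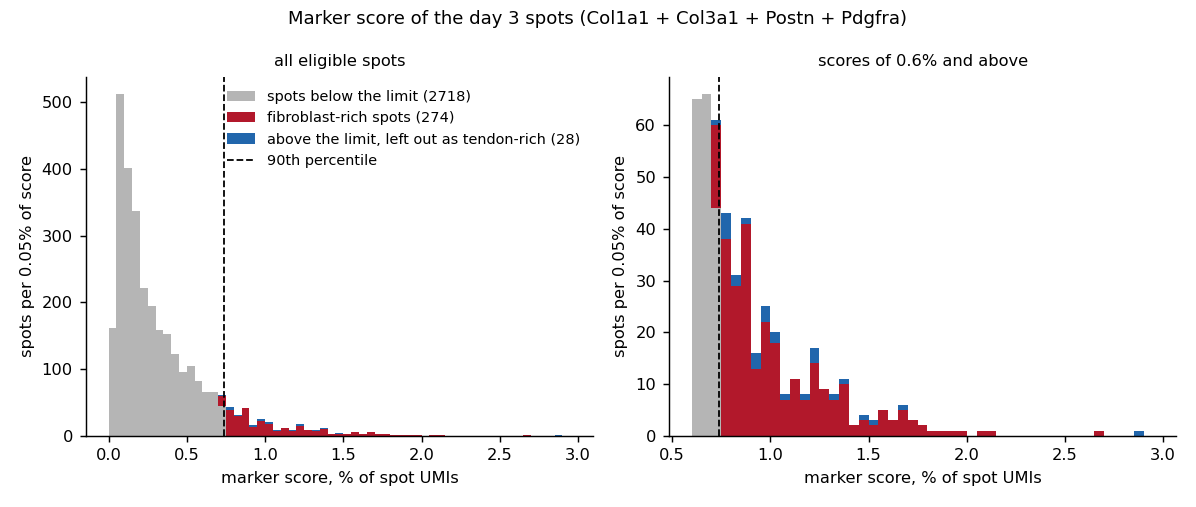
Number of day 3 spots (y axis) by marker score, the percentage of a spot's UMIs from Col1a1, Col3a1, Postn and Pdgfra (x axis), for all 3020 spots with at least 2000 UMIs on the left and for the upper part of the range on the right. The dashed line is the 90th percentile, red bars are the 274 fibroblast-rich spots and blue bars the 28 spots left out as tendon-rich, and there is no gap at the limit.

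The score was mostly collagen. Col3a1 gave 47.4% of the marker UMIs in the fibroblast-rich spots, Col1a1 30.8%, Postn 21.2% and Pdgfra 0.613%. Col3a1, a fibrillar collagen of early repair tissue, ranged from 2657 to 14629 CPM per spot (UMIs of a gene scaled to a spot total of 1000000) with a median of 4576 CPM. Col1a1, the main fibrillar collagen of bone and tendon, ranged from 783 to 7947 CPM with a median of 2985 CPM. Postn, which encodes the matricellular protein periostin, ranged from 0 to 6400 CPM with a median of 2001 CPM. Summed over spots, these genes stood 3.15-fold, 3.15-fold and 4.41-fold above the other spots. Pdgfra, the receptor that defines the resident cells, was sparse, with a median of 49.2 CPM and at least 1 UMI in 199 of 274 spots (72.6%, against 42.1% of the other spots). Its summed level was 63.7 CPM against 41.6 CPM, a 1.53-fold difference, and 43 of 274 spots exceeded the 90th percentile of the other spots.

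Which marker was used changed the choice to different degrees. Without Pdgfra the rule still found 272 of the 274 spots, without Postn 246, without Col1a1 244 and without Col3a1 224. Ranking by Pdgfra alone shared only 42 spots with the choice. The proportions among markers also varied between spots. The Col1a1 to Col3a1 ratio of UMIs had a median of 0.654 and ran from 0.342 at the 10th to 1.01 at the 90th percentile of the fibroblast-rich spots. The ratio of Postn to Col3a1 UMIs had a median of 0.455 there and of 0.259 in the 1685 other spots with at least 10 Col3a1 UMIs. To keep the counting error of the choice out of the measured values, each spot's UMIs were split at random, one portion to choose spots and the other to measure them. The measured portion gave 3.08-fold for Col1a1, 3.09-fold for Col3a1, 4.39-fold for Postn and 1.48-fold for Pdgfra. Both portions come from the same spots and the rule's own genes, so these values remain a description of the choice.

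The fibroblast-rich spots differed from the rest of the section in overall content. They were deeper, with a median of 26431.5 UMIs and 5846 genes per spot against 15010 UMIs and 3568.5 genes. Adult myofibre genes took 3.10% of their UMIs against 9.85% in the other spots, and mitochondrial genes 5.20% against 12.7%. Of the 274 spots, 0 lay above the median of the other spots in summed myofibre CPM. Because myofibre RNA takes up so much of the total elsewhere, any other RNA gains share where it is low. The median gene of the 11044 with at least 200 UMIs was 0.34 higher on the log2 scale in the fibroblast-rich spots. In a bulk sum over a spot, more cells of a type and more RNA per cell cannot be told apart.

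Of these 11044 genes, 2534 (22.9%) were at least 1.5-fold higher in the fibroblast-rich spots and 735 (6.66%) at least 1.5-fold lower. With TMM factors, which centre the bulk of the genes and shift every log2 ratio by -0.37, the counts were 437 higher and 1477 lower. These counts belong to the same contrast as the choice, so they are background values for the lists below and are not a finding. A gene is called higher or lower below when it passed the 1.5-fold limit on the CPM scale, and each list is set beside the all-gene median of 0.34 and share of 22.9%.

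Matrix genes outside the rule were the leading genes. The 12 genes with the largest ratio were Cthrc1, Thbs2, Aspn, Angptl1, Col12a1, Tnc, Col14a1, Col5a1, Col5a2, Fn1, Col1a2 and Col16a1. Cthrc1, a secreted glycoprotein of activated fibroblasts, had a median of 274 CPM per fibroblast-rich spot and 0 CPM per other spot. Its 10th and 90th percentiles were 89.6 and 610 CPM in the fibroblast-rich spots, and the 90th percentile of the other spots was 160 CPM. Its summed level was 4.87-fold higher (interval 4.62 to 5.13). The median fibroblast-rich spot thus exceeded the 90th percentile of the other spots for this gene.

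Aspn, a small leucine-rich proteoglycan, had a median of 352 CPM per spot against 0 CPM and was 4.25-fold higher when summed. Thbs2, a matricellular thrombospondin, had a median of 222 CPM against 0 CPM and was 4.29-fold higher. Tnc, which encodes tenascin-C of provisional matrix, had a median of 238 CPM against 0 CPM and was 3.42-fold higher. Most of the 274 spots held more of each than the median other spot, namely 268 for Aspn, 257 for Thbs2 and 251 for Tnc.

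Of 14 collagens that the rule did not use, 11 were higher and 0 lower, with a median log2 ratio of 1.31. Col1a2, the partner chain of Col1a1, ran from 1953 CPM at the 10th to 4961 CPM at the 90th percentile of the fibroblast-rich spots, with a median of 3045 CPM. In the other spots it ran from 189 to 1963 CPM, with a median of 687 CPM. All 274 fibroblast-rich spots stood above that median. Col5a1 and Col5a2, chains of the collagen that starts fibril assembly, were 3.23-fold and 3.15-fold higher. Col12a1 (3.45-fold) and Col14a1 (3.28-fold) encode fibril-associated collagens. The 3 that did not pass were Col4a1 (0.784-fold), Col4a2 (0.794-fold) and Col15a1 (0.983-fold), which belong to basement membranes and lie around fibres and vessels.

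The enzymes that modify procollagen went the same way. Of 22 genes for collagen processing, 21 were higher and 0 lower, with a median log2 ratio of 1.05. P4ha3, a prolyl hydroxylase subunit, was 3.06-fold higher, Plod2, which hydroxylates lysines for cross-links, 2.72-fold, and Lox, the cross-linking oxidase, 2.68-fold. Serpinh1, the collagen chaperone HSP47, had a median of 1018 CPM per spot against 346 CPM and was 2.35-fold higher. P4ha1 was at 1.38-fold and did not pass.

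The glycoproteins and elastic fibre genes counted 22 higher and 0 lower of 23, with a median log2 ratio of 1.18. Fn1, which encodes fibronectin, had a median of 1516 CPM per spot against 297 CPM and was 3.07-fold higher. Sparc, a collagen-binding glycoprotein, had a median of 2201 CPM against 798 CPM and was 2.28-fold higher. Fbn1 (2.54-fold), Mfap5 (2.30-fold) and Eln (2.32-fold) encode parts of microfibrils and elastic fibres. Smoc2, a matricellular protein of resting matrix, was at 0.966-fold. Of 10 proteoglycans and hyaluronan synthases, 7 were higher and 0 lower, while decorin (Dcn) at 1.37-fold, Prelp at 1.07-fold and Podn at 1.04-fold did not pass.

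**Figure D2:**
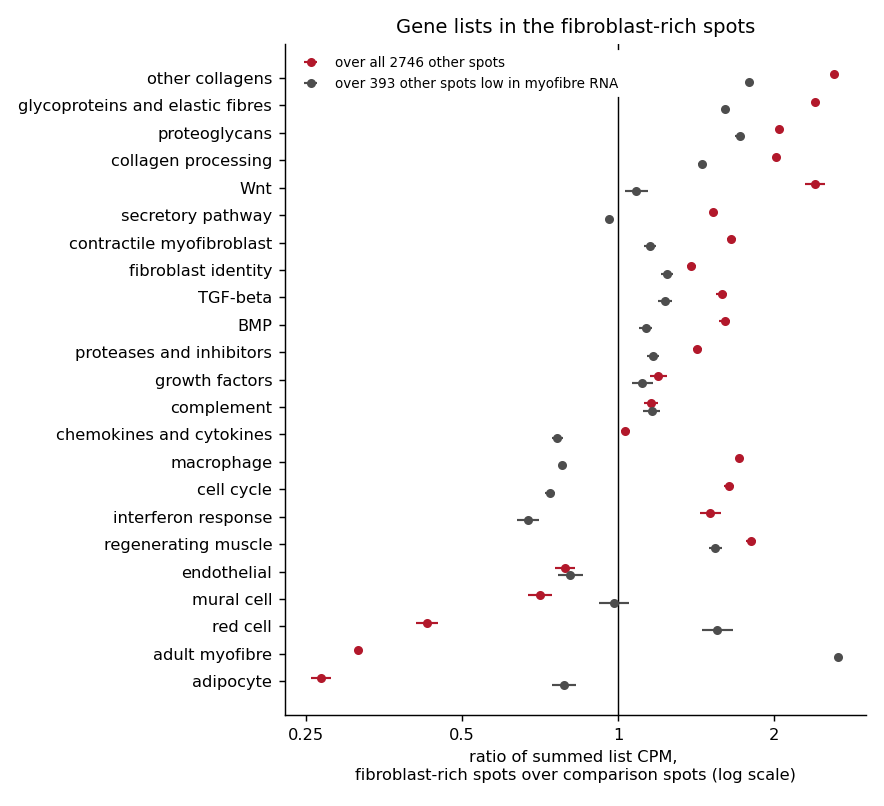
Summed CPM of each gene list in the 274 fibroblast-rich spots divided by that in all 2746 other spots (red) or in the 393 other spots low in myofibre RNA (grey), on a log x axis with 95% counting intervals as bars (many are smaller than the point) and 1 row per list. The other collagens, glycoproteins, proteoglycans and collagen processing lie above 1.4 in both comparisons, whereas macrophage, cell cycle and interferon response lie above 1 in red and below 1 in grey.

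The label of these spots was checked on fibroblast genes that the rule did not use. Of 19 genes for fibroblast identity with enough UMIs, 11 were higher and 2 lower, with a median log2 ratio of 0.65 and a summed ratio of 1.38. Hic1, a repressor found in resident mesenchymal cells, was 2.30-fold higher, and Fap, a surface protease of activated fibroblasts, 2.13-fold. Islr (1.92-fold), Cdh11 (1.88-fold), Dpt (1.84-fold) and Twist1 (1.82-fold) also passed. Pi16 (0.566-fold) and Cd55 (0.561-fold), which mark fibroblasts of fascia and adventitia, were lower. Mme (0.859-fold) and Clec3b (0.827-fold), genes of resting fibroblasts, did not pass, and Ly6a, the surface antigen Sca-1, was at 1.34-fold. With TMM factors 2 of the identity genes were still higher. None of the list was at 0 in these spots. The summed ratio of the identity genes (1.38) was smaller than that of the other collagens (2.61), and macrophage genes held a larger share of the RNA of these spots than the 4 markers of the rule, so the name says what the spots are rich in and not which cells make them up.

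Of 8 contractile genes, 6 were higher and 0 lower, but 0 were higher with TMM factors. Acta2, smooth muscle actin, which marks myofibroblasts and also vessel walls, had a median of 205 CPM per spot against 75.1 CPM and was 1.77-fold higher. Tagln (1.27-fold) and Myl9 (1.32-fold), which share both sources, did not pass. The 7 mural cell genes counted 0 higher and 2 lower. Their sum had a median of 165 CPM per fibroblast-rich spot against 251 CPM per other spot, and was 0.707-fold over all spots. The 10 endothelial genes counted 0 higher and 1 lower, with a median sum of 244 CPM against 295 CPM and a summed ratio of 0.790.

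Signals of the TGF-beta family were mixed. Among its 14 genes 5 were higher and 2 lower, with a median log2 ratio of 0.49. Tgfb3, a ligand, had a median of 67.5 CPM per spot against 0 CPM and was 2.66-fold higher. Tgfb1 was at 1.46-fold and Tgfb2 at 1.16-fold, and neither passed. Ltbp2 (2.88-fold) and Ltbp1 (2.19-fold) encode matrix proteins related to latent TGF-beta storage and Tgfbr2 (1.78-fold) the type II receptor. The 2 lower genes were Smad3 (0.572-fold), a transducer, and Smad7 (0.644-fold), an inhibitor. Against the other spots low in myofibre RNA, 3 of 13 counted genes of this list were higher and 0 lower, the lowest at 0.742-fold.

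Among 15 BMP genes, 5 were higher and 2 lower, with a median log2 ratio of 0.32. Fstl1, a secreted follistatin-like protein, had a median of 529 CPM per spot against 179 CPM and was 2.28-fold higher, and Fst, the extracellular inhibitor follistatin, was 1.67-fold higher. Noggin (Nog), an inhibitor that binds BMP4, was 0.586-fold, and the receptor Bmpr1b was 0.476-fold. Bmp4, the gene of the transgene, was sparse, with 32 UMIs summed over the 274 spots and 4.23 CPM against 5.11 CPM (0.827-fold, interval 0.554 to 1.19). Counts per gene do not separate the transgene from the endogenous gene. The targets Id1 (106 against 87.3 CPM) and Id3 (235 against 168 CPM) did not pass, while Id2 (95.5 against 63.5 CPM) did.

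Remodelling enzymes, cytokines and growth factors divided further. Of 18 proteases and inhibitors, 8 were higher and 3 lower. Adam12 (2.84-fold), Mmp23 (2.64-fold), Adamts12 (2.50-fold) and Mmp2 (1.99-fold) were among the higher. Mmp3, stromelysin, was 0.347-fold, Timp3, a matrix-bound inhibitor, 0.382-fold and Adamts9 0.553-fold. Of 15 chemokines and cytokines, 2 were higher and 3 lower, with Cxcl14 at 0.427-fold, Saa3 at 0.324-fold and Ccl11 at 0.645-fold. Pdgfc (2.23-fold) and Igf1 (1.60-fold) passed among 9 growth factors, while Vegfa was lower at 0.506-fold. In the comparison with spots low in myofibre RNA, 1 of 7 counted growth factors was higher and 0 lower, the lowest at 0.914-fold. All 3 counted Wnt genes, the secreted inhibitors Sfrp1 (2.25-fold), Sfrp2 (2.63-fold) and Sfrp4 (2.39-fold), were higher. Against the other spots low in myofibre RNA, Sfrp2 was at 0.918-fold, Sfrp1 at 1.55-fold, and the list summed to 1.08-fold.

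Genes of cartilage and bone were close to undetected. Of 14 chondrogenic genes, only Sox9 and Sox6 had 200 UMIs in the section, and Col9a2, Hapln1, Matn1, Cnmd and Snorc were at 0 in the fibroblast-rich spots. Sox9, the regulator of cartilage, was at 16.8 CPM against 15.5 CPM (1.09-fold), and Sox6 was lower at 0.310-fold. Runx2, the regulator of bone, was at 17.7 CPM against 8.92 CPM, a 1.98-fold difference (interval 1.62 to 2.41). Against the other spots low in myofibre RNA, Runx2 was at 0.881-fold, and against those rich in macrophage RNA at 1.02-fold, so the difference did not hold there. Alpl, a phosphatase of mineralising matrix, was 0.583-fold, and the bone genes Sp7, Ibsp and Dlx5 were at 0, which allows up to 3 UMIs each in the summed spots.

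RNA of other cell types was present in the same spots. The 14 macrophage genes summed to 14845 CPM in the fibroblast-rich spots and 8682 CPM in the others (1.71-fold), with 9 higher and 0 lower. Per spot the sum ran from 1453 to 33414 CPM against 0 to 35727 CPM, and no gene of the list was at 0. Lyz2, a lysozyme of macrophages and neutrophils, had a median of 6478 CPM per spot against 1690 CPM. With TMM factors 0 of the 14 were higher. The part of macrophage RNA in the other results was not tested. Neutrophil, T and NK cell, B cell and dendritic cell genes had 1 of 3, 1 of 2, 1 of 2 and 2 of 3 higher, and the lists summed to 78.2, 23.8, 30.3 and 51.3 CPM in the fibroblast-rich spots. Ly6g of the neutrophil list and Ms4a1 of the B cell list were at 0. Against the other spots low in myofibre RNA, 0 of 3 neutrophil, 0 of 1 B cell and 0 of 2 dendritic cell genes were higher. No T and NK cell gene had enough UMIs to be counted there, so that list could give no call. In the order above, the lists summed to 0.661-fold, 0.671-fold, 0.841-fold and 0.762-fold.

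Cells that rebuild muscle were also represented. Of 11 regenerating muscle genes, 10 were higher and 0 lower, with a median log2 ratio of 0.72. Myog, the regulator of myoblast differentiation, had a median of 301 CPM per spot against 59.8 CPM and was 2.10-fold higher. Mymk and Mymx, which encode the membrane proteins of myoblast fusion, were 2.06-fold and 2.40-fold higher, and Myh3, embryonic myosin, was 2.19-fold higher. Myod1 was at 1.18-fold. Cell cycle genes counted 17 higher and 0 lower of 19, with Mki67 at 1.68-fold and Ccnb2 at 2.09-fold. With TMM factors 5 of the regenerating muscle genes and 1 of the cell cycle genes were higher.

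The 12 genes with the smallest ratio were of fat and of adult fast muscle. Cfd, which encodes the adipocyte protein adipsin, was at 10.7 CPM against 160 CPM, a ratio of 0.0669, and Hp, haptoglobin, was at 0.186. The others, Mettl21c, Mylk4, Myh4, Pvalb, Mss51, Smtnl2, Myoz1, Pygm, Ampd1 and Ckm, are expressed in muscle fibres. Myh4, the fastest adult myosin, had a median of 894 CPM per spot against 13756 CPM, and 3 of 274 spots exceeded the other spots' median. Of 7 adipocyte genes 6 were lower, of 15 adult myofibre genes 14 and of 4 red cell genes 4.

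Because the myofibre share differs so much, the 274 spots were also set against the 393 other spots whose myofibre share was at or below 2.22%, the median of the fibroblast-rich spots. These comparison spots held 1.17% of myofibre UMIs in sum, less than the fibroblast-rich spots, and had a median of 23753 UMIs. Here 529 of 8736 genes (6.06%) were higher and 404 (4.62%) lower, and the median gene was -0.13 on the log2 scale. The 12 largest ratios all belonged to genes expressed in muscle fibres, many of them of slow or oxidative fibres, with Myh2 at 6.53-fold, Mb at 5.42-fold and Myh7 at 4.35-fold, and all 15 adult myofibre genes were higher. The comparison spots were picked for a low share of these 15 genes. Higher myofibre RNA in the fibroblast-rich spots was therefore set by that choice and is not a finding. The matrix lists kept their direction. Other collagens counted 11 higher of 14 (summed 1.79-fold), collagen processing 15 of 22 (1.45-fold), glycoproteins 13 of 23 (1.61-fold) and proteoglycans 6 of 10 (1.71-fold). Cthrc1 was 3.21-fold higher, Angptl1, a secreted angiopoietin-like protein, 3.00-fold, Aspn 2.49-fold and Tnc 2.37-fold.

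Other lists turned. Macrophage genes counted 0 higher and 4 lower of 14 (summed 0.779-fold), cell cycle genes 0 higher and 3 lower of 19 (0.740-fold) and interferon response genes 0 higher and 4 lower of 8 (0.671-fold). Spp1, osteopontin, at 0.377-fold, and Msr1, a scavenger receptor, at 0.429-fold, were among the 12 smallest ratios. Secretory pathway genes, 8 of 14 higher against all other spots, counted 1 of 14 (0.962-fold). Regenerating muscle stayed up with 5 of 9 genes (1.54-fold), and Pi16, lower against all other spots, was 2.02-fold higher than in the low-myofibre spots. Against the 437 other spots as rich in macrophage RNA as the fibroblast-rich median, 11 of 14 other collagens and 16 of 23 glycoproteins were higher, beside 411 of all 8881 genes (4.63%) higher and 2.86% lower.

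Against the 151 tendon-rich spots, which the rule separates by its own tendon genes, 309 of 6854 genes (4.51%) were higher and 236 (3.44%) lower. Regenerating muscle genes counted 7 of 8 higher (2.04-fold), with Myh3 3.30-fold and Myog 2.42-fold higher. The matrix and identity lists divided in this comparison. Other collagens counted 5 higher and 2 lower of 14 (summed 1.27-fold) and glycoproteins 9 higher and 2 lower of 23 (1.31-fold), beside 4.51% of all genes higher. Nearer to the tendon-rich spots were collagen processing with 2 higher of 21 (1.21-fold) and proteoglycans with 2 higher and 4 lower of 9 (0.917-fold). Fibroblast identity counted 0 higher and 2 lower of 13 (0.937-fold). Among single genes, Cthrc1 was 2.65-fold higher and Vcan, the large proteoglycan of provisional matrix, stood at 118 CPM against 58.7 CPM. Complement genes counted 0 higher and 6 lower of 7, with C4b at 0.191-fold and C3 at 0.216-fold, and all 4 counted adipocyte genes were lower. Pi16 (0.221-fold), Fbln1 (0.314-fold) and Prelp (0.289-fold), matrix and fibroblast genes of dense connective tissue, were lower in the fibroblast-rich spots.

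The position of other lists along the marker score was described over 10 bins of equal rank width, each without tendon-rich spots. Other collagens climbed from 875 CPM in the lowest bin to 4360 CPM in the bin before the last and 6737 CPM in the fibroblast-rich spots, which make up the last bin. Macrophage genes climbed from 2539 CPM to 13723 CPM in the bin before the last and 14845 CPM in the fibroblast-rich spots. Regenerating muscle genes went from 223 CPM to 1346 and 1328 CPM. Collagens thus kept rising over the last step, while macrophage and regenerating muscle genes hardly moved there.

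**Figure D3:**
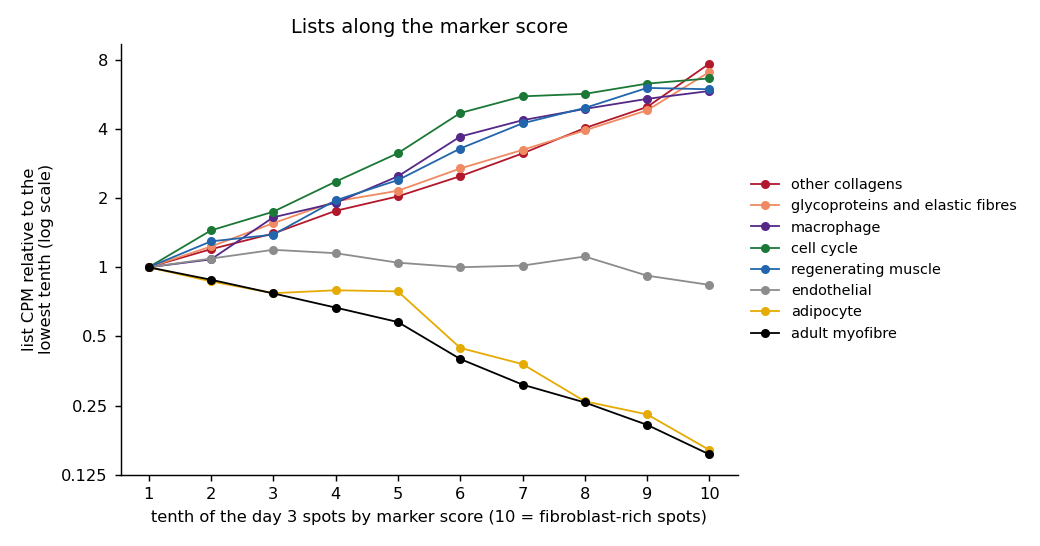
Summed CPM of 8 gene lists in 10 bins of the day 3 spots ordered by marker score (x axis), relative to the lowest bin, on a log y axis. The collagen and glycoprotein lines keep rising into the fibroblast-rich spots, the macrophage, cell cycle and regenerating muscle lines flatten before the last bin, and the adult myofibre and adipocyte lines end below 1.

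Thinning every spot to 2000 UMIs removed the difference in depth. Of the 274 spots, 28.7% were at or above the section's 90th percentile for macrophage genes, against 10.5% of all spots (ties at whole UMI counts carry this above 10%). For regenerating muscle it was 38.3% against 14.9%, for cell cycle 32.3% against 14.2% and for other collagens 64.9% against 11.2%. No fibroblast-rich spot, 0 of 274, reached it for adult myofibre genes, and 1.55% did for adipocyte genes. Within the 274 spots, Spearman's rho with the thinned marker score was 0.44 for other collagens, -0.03 for macrophage and 0.01 for regenerating muscle genes. Spots are not replicates and share 1 library, so these are descriptions.

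The fibroblast-rich spots were also compared among themselves. Leiden clustering without the rule genes, mitochondrial and haemoglobin genes gave 4 clusters of spots, called regions here and given by number. They rest on expression only, since spot positions were not used, so a region need not be 1 place in the section. Between the lowest and the highest region other collagens differed 1.23-fold and glycoproteins 1.24-fold. Over all spots these 2 lists went with the thinned marker score (rho 0.69 and 0.71), so their evenness is not independent of the choice. The summed rule markers, whose level the choice of spots holds within limits, differed 1.07-fold, and Pdgfra among them 2.53-fold. Adult myofibre genes differed 7.16-fold, regenerating muscle genes 6.28-fold, interferon response genes 4.78-fold and macrophage genes 2.07-fold.

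Region 1, with 103 spots, was led by Ccl21a, a chemokine of lymphatic vessels, and by Myh2, Ankrd2 and Mb of oxidative fibres. Its adult myofibre genes were 3.86-fold above the remaining fibroblast-rich spots, its adipocyte genes 3.48-fold and its mural cell genes 1.95-fold, while macrophage genes were at 0.537-fold. Over all fibroblast-rich spots, Car3 gave 247 of the 277 CPM of the adipocyte list. Region 2, with 78 spots, was led by the neutrophil chemokine Cxcl5, by Spp1 and by Ptx3, a soluble pattern recognition protein. It held the most macrophage RNA (19692 CPM, 1.53-fold), interferon response genes (2.20-fold), chemokines and cytokines (1.95-fold) and cell cycle genes (1.62-fold), and its myofibre genes were at 0.207-fold. Pdgfra stood at 94.6 CPM in region 2 against 51.2 CPM in the remaining fibroblast-rich spots, and fibroblast identity genes at 1.25-fold.

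Region 3, with 73 spots, was led by Eln (2.39-fold), elastin, and had Sfrp1 at 1.71-fold. Its adult myofibre genes were at 0.517-fold, its chemokines and cytokines at 0.684-fold, its Wnt genes at 1.38-fold and its macrophage genes at 1.30-fold. Wnt genes stood higher in region 2, at 515 CPM (1.86-fold) against 430 CPM in region 3. Region 4, with 20 spots, was led by Lce1g and Sprr1a, genes known from cornified epithelium, and by Myh3 (6.44-fold), Actc1, embryonic cardiac actin of new fibres (6.22-fold), and Mymk (4.44-fold). Its regenerating muscle genes stood at 3968 CPM against 1095 CPM, and Igf2, a growth factor of myogenesis, was 5.37-fold higher. Fibroblast identity genes were at 0.691-fold and Pdgfra at 37.4 CPM in that region. The skin epithelium list was not raised in region 4, at 9.77 CPM against 11.9 CPM (0.818-fold, interval 0.292 to 1.86). Krt5, Krt14 and Krt1 of that list were at 0 in all fibroblast-rich spots. With a resolution of 1 in place of 0.5 the clustering gave 8 regions, and all 20 spots of region 4 stayed in 1 of them.

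**Figure D4:**
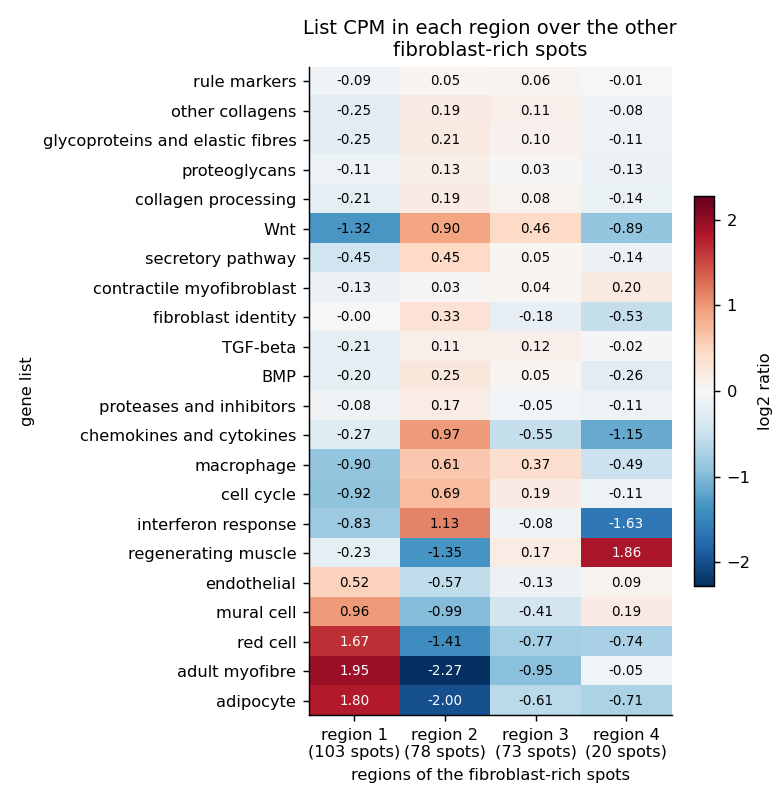
Log2 ratio of summed CPM of each gene list (rows) in a region of the fibroblast-rich spots over the remaining fibroblast-rich spots. Columns are the 4 regions, clusters by expression and not by position, with their numbers of spots. Red is higher and blue lower. The matrix rows stay pale, with ratios between 0.840 and 1.16 in every region, while adult myofibre, adipocyte, regenerating muscle and interferon response span ratios from 0.207 to 3.86.

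Applying the rule with its own percentiles in the other sections gave 186 spots in uninjured muscle, 175 at day 1 and 202 at day 7. The limits of the score differed widely and were, in order of day, 0.987%, 0.140%, 0.736% and 4.02%. The day 3 limit was reached by 355 uninjured spots (17.0%), by 3 spots (0.139%) of day 1, by 302 (10.0%) of its own section and by 1509 (51.2%) of day 7. The fibroblast-rich spots of day 3 were therefore chosen at a marker score that 51.2% of the day 7 spots reached, and at a lower limit than in uninjured muscle. The chosen spots at day 1 were shallow, with a median of 4188 UMIs.

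Individual genes in the chosen spots differed between the 4 sections, each with 1 value. Because the score limits differed between sections, these spots were not chosen at an equal marker score. Cthrc1 was at 4.76, 11.9, 330 and 1253 CPM in the order of days 0, 1, 3 and 7. Tnc was at 10.1, 36.7, 334 and 1134 CPM and Postn at 339, 96.0, 2199 and 5476 CPM in the same order. Col1a1 was at 8864, 1052, 3194 and 40471 CPM. For Cthrc1 and Tnc the day 3 value lay above both earlier days and below day 7. Postn and Col1a1, and Pdgfra with 51.5 to 68.0 CPM, are markers of the rule, so their levels restate the choice made in each section and are no comparison between days.

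Lyz2 in the chosen spots was at 325, 570, 7105 and 1081 CPM and Myog at 33.9, 35.6, 411 and 104 CPM, each with its highest value at day 3. Pi16 went from 250 CPM at day 0 to 68.0, 39.2 and 124 CPM. Acan, the main cartilage proteoglycan, had 1, 0, 1 and 3568 UMIs in the chosen spots, the last equal to 1038 CPM. Sox9 was at 5.95, 9.71, 16.8 and 286 CPM. The cartilage genes that were near 0 in the fibroblast-rich spots of day 3 were thus abundant in the spots chosen at day 7.

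Ratios of chosen over other spots within each section showed which lists went along with the marker score on each day. In uninjured muscle 1910 of 9277 genes (20.6%) were at least 1.5-fold higher and 1.07% lower. For day 1 these were 1716 of 6507 (26.4%) and 3.53%, and for day 7 4712 of 10716 (44.0%) and 1291 genes. Of the 2534 genes higher at day 3, 837 of the 1536 counted at day 0 were higher there too (54.5%), 453 of 893 at day 1 (50.7%) and 1717 of 2152 at day 7 (79.8%). As a share of the genes higher on the other day and counted at day 3, these were 45.3%, 26.5% and 38.4%. Other collagens were higher in sum by 3.21-fold, 3.64-fold, 2.61-fold and 4.41-fold at days 0, 1, 3 and 7.

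Regenerating muscle genes summed to 0.786-fold, 0.968-fold, 1.80-fold and 0.643-fold in that order, so only day 3 lay above 1. Adipocyte genes were at 1.31-fold, 2.76-fold, 0.268-fold and 0.308-fold. Cfd, for example, was 5.02-fold and 13.3-fold higher in the chosen spots of days 0 and 1. At day 3 Car3 gave 247 of the 277 CPM of this list in the chosen spots. Macrophage genes were at 2.81-fold, 0.974-fold, 1.71-fold and 1.23-fold, and endothelial genes at 1.68-fold, 2.17-fold, 0.790-fold and 1.23-fold. Fibroblast identity genes stood at 2.50-fold, 3.01-fold, 1.38-fold and 1.56-fold. At day 7 this was near the level of all genes, with 10 of 20 higher beside 44.0%. The median log2 ratio there was 0.52 beside 0.48 for all genes. Chondrogenic genes counted 11 higher of 12 at day 7 (3.54-fold) against 0 of 2 at day 3 (0.657-fold). With 1 section per day, differences between days and differences between the muscles sectioned cannot be told apart.

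**Figure D5:**
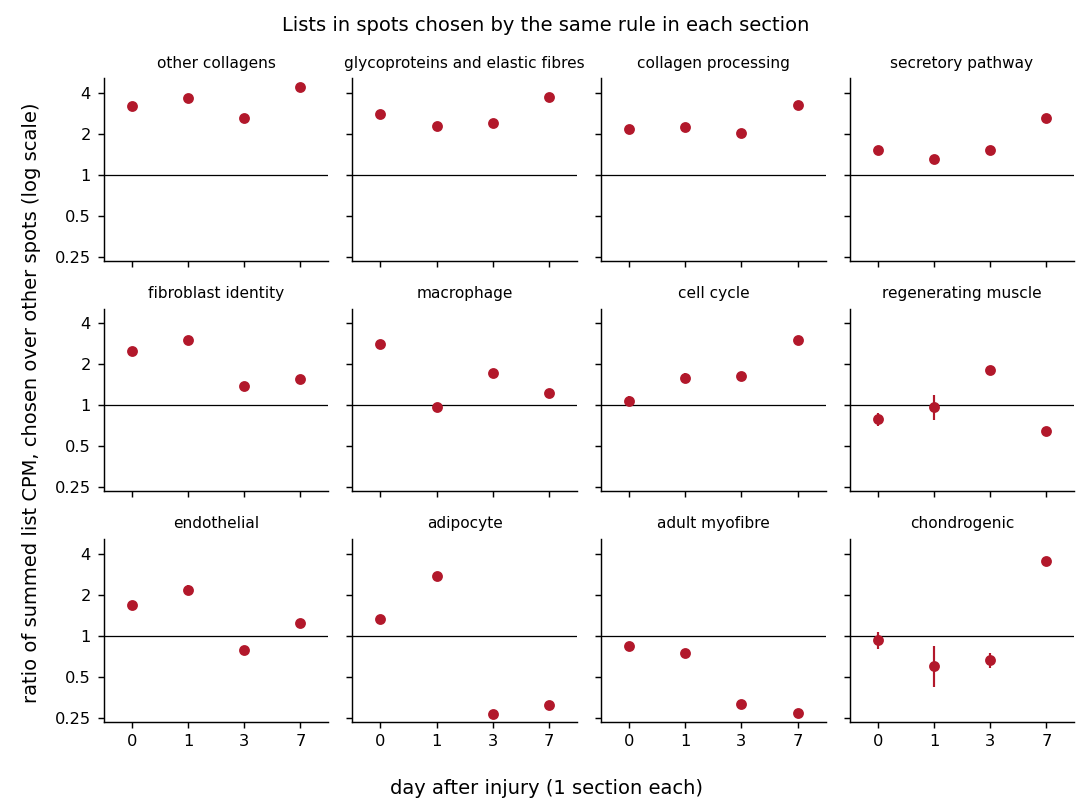
Summed CPM of 12 gene lists in spots chosen by the same rule divided by that in the other spots of the same section, on a log y axis, for the sections at days 0, 1, 3 and 7 after injury (x axis), with 95% counting intervals as bars. The matrix panels lie above 1 on every day, regenerating muscle lies above 1 at day 3, adipocyte genes lie above 1 at days 0 and 1 and below 1 at days 3 and 7, and chondrogenic genes lie above 1 at day 7.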

How the data were processed

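The authors deposited raw UMI counts for each gene in each Visium spot, made with Space Ranger (version 1.2.0 per the file headers, build mm10 per the labels) from fresh frozen sections. Each table held 32285 features. Spot positions and images were not used, and no doublet caller was run, since a spot holds several cells. The members and the 32 gene lists (389 genes, 388 among the features) were chosen with earlier results of these data known.

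UMIs were summed over chosen and other spots, scaled to CPM and divided. Genes with fewer than 200 UMIs were left out, and intervals were exact conditional ones. A gene with 0 UMIs was entered at 3 UMIs. The calculation recovered 2-fold changes planted in simulated counts of these spots. Named genes were the 12 highest and the 12 lowest by ratio among those with at least 50 CPM in either set of spots, without rule and mitochondrial genes, and genes of the lists. Other genes named as leading a region or a comparison were picked by their values. Thinning used 20 draws of 2000 UMIs. Regions used counts scaled to 10000 per spot, 2000 variable genes, 20 components, 15 neighbours and seed 1. The work used edgeR 4.0.16 (TMM factors) and DESeq2 1.42.0 (size factors) in R 4.3.3, and leidenalg 0.10.2, Scanpy 1.11.5, SciPy 1.17.1, NumPy 2.4.6, pandas 2.3.3 and matplotlib 3.10.9 in Python 3.11.15. The other settings changed the score, its percentile, the tendon exclusion, the UMI minimum, the scaling, the comparison spots, the filter, the thinning and the resolution. The comparison spots of the same depth range, those as rich in macrophage RNA and those without tendon-rich spots were added after seeing the data. No test between sections was possible with 1 section per day. Some members of the lists are not reported here.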

Additional observations from a re-analysis of the deposited data

Results flagged for a closer look

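Adipocyte genes in the chosen spots moved in opposite directions on different days, at 2.76-fold over the other spots at day 1 (interval 2.65 to 2.87) and 0.268-fold at day 3 (interval 0.256 to 0.280). At day 3 Car3 alone gave 247 of the list's 277 CPM in the chosen spots and 796 of 1035 CPM in the others. Of the counted genes, 4 of 5 were higher at day 1 and 6 of 7 lower at day 3. Tendon genes outside the rule summed to 0.371-fold at day 1 (interval 0.271 to 0.497) and 2.09-fold at day 3 (interval 2.02 to 2.16), where Cilp alone was 2.67-fold higher while 3 of the 5 counted genes were lower. There was 1 section per day, so neither difference between days was tested.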

How the results depend on the processing

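No paired analysis was possible because each day had 1 section, and for the same reason no replicate could be left out. Counts below are genes at least 1.5-fold higher, of each list or of all genes, unless lower is stated. The scaling moved the calls most. With DESeq2 size factors, 428 genes were higher and 1495 lower, and fibroblast identity counted 2, contractile 0, TGF-beta 3, BMP 1, secretory pathway 2, chemokines 0, growth factors 1, complement 0, cell cycle 1, macrophage 0, interferon 0 and regenerating muscle 5. With TMM factors, 437 were higher and 1477 lower, and these lists counted the same except for TGF-beta, whose 4 genes were close to the main count. With totals without myofibre, mitochondrial and haemoglobin genes, 644 were higher, with fibroblast identity 4, contractile 1, BMP 1, secretory pathway 3, chemokines 0, growth factors 1, complement 1, cell cycle 1, macrophage 1, interferon 1 and regenerating muscle 5. Against low-myofibre spots, 529 were higher and 404 lower, with glycoproteins 13, fibroblast identity 7, contractile 3, TGF-beta 3, BMP 1, proteases 4, secretory pathway 1, chemokines 0, growth factors 1, complement 1, cell cycle 0, macrophage 0, interferon 0, mural cell 2, adult myofibre 15, regenerating muscle 5 and adipocyte 1. There the median log2 ratio turned to -0.41 for cell cycle, -0.40 for macrophage and 1.36 for adult myofibre, and the log2 ratio turned to 0.47 for Mettl21c, 0.46 for Mylk4, 0.77 for Myh4, 0.92 for Pvalb, 0.56 for Mss51, 1.33 for Smtnl2, 1.29 for Myoz1, 1.14 for Pygm, 1.24 for Ampd1 and 1.33 for Ckm. Against macrophage-rich spots, an alternative chosen after seeing the data, 411 were higher and 254 lower, with fibroblast identity 6, contractile 3, BMP 1, proteases 3, secretory pathway 2, chemokines 0, growth factors 1, complement 1, cell cycle 0, macrophage 0, interferon 0, mural cell 1, adult myofibre 11 and regenerating muscle 5, medians of -0.25 for cell cycle, -0.45 for macrophage and 0.72 for adult myofibre, and log2 ratios of 0.063 for Mylk4, 0.021 for Myh4, 0.21 for Pvalb, 0.50 for Smtnl2, 0.55 for Myoz1, 0.54 for Pygm, 0.50 for Ampd1 and 0.66 for Ckm. The 80th percentile gave 541 spots and interferon 2, and in the other sections 19 genes lower at day 0, 1107 higher and 100 lower at day 1 and 800 lower at day 7. The 95th percentile gave 135 spots, with chemokines 4, complement 4 and interferon 7. The mean of spot CPM gave 3941 higher, with chemokines 5, macrophage 14 and mural cell 1. Without a filter 8766 were higher and 1120 lower, with chemokines 4, growth factors 6 and adipocyte 1. Unthinned, 22.6% of spots reached the section's 90th percentile for cell cycle and 32.1% for regenerating muscle genes. Choosing and measuring on separate UMIs gave BMP 3. Markers scaled to their means gave chemokines 4, no tendon exclusion chemokines 4 and complement 4, the same depth range BMP 2 and interferon 2, and other spots without tendon-rich ones chemokines 4 (both of these comparisons were added after seeing the data). A score without Col3a1 gave chemokines 1, complement 1 and mural cell 1, without Pdgfra chemokines 1 and without Postn chemokines 5. A resolution of 1 gave 8 regions. The adult myofibre results against low-myofibre spots and the macrophage results against macrophage-rich spots follow from how those spots were picked. The cause of the other changes was not tested. Matrix lists stayed within 1.5 times their count under every setting except glycoproteins against low-myofibre spots.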
